A study of Mus musculus with 74 samples.

Results

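Microglia of Trem2 -/- mice were compared with those of wild-type (Trem2 +/+) mice on control diet, without a demyelinating treatment. The comparison used every library of Cd11b-positive brain cells from Trem2 -/- and Trem2 +/+ mice on control diet, 11 of the 74 libraries of the study and 11 of its 37 microglia libraries. There were 6 Trem2 -/- animals (3 fed for 12 weeks and 3 for 5 weeks) and 5 Trem2 +/+ animals (2 fed for 12 weeks and 3 for 5 weeks). Each genotype had 1 male at each time, all others being female. The 7 Trem2 +/- libraries on control diet are given beside the others as levels only. The study also fed cuprizone, a copper chelator that kills oligodendrocytes and so removes myelin, for the same times, and those 12 Trem2 -/- and Trem2 +/+ libraries serve here for comparison. The labels name homozygous and heterozygous knockout mice without giving the deleted part of the gene, the strain or the age. Brains were perfused, dissociated and sorted for viable cells, and RNA of the Cd11b-positive cells was sequenced from the 3' ends of transcripts.

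TREM2 is a receptor on the surface of microglia that binds lipids, lipoproteins and cell debris. It has almost no signalling tail of its own and passes its signal through the adaptor TYROBP to the kinase SYK. In mouse models of amyloid and of myelin damage, microglia that meet debris lower their homeostatic genes and turn on a set of lipid-handling, lysosomal and phagocytic genes called disease-associated genes. The later stage of that switch is known to need TREM2, whereas healthy brains hold few such cells.

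The libraries held 1414602 to 2158554 counts in Trem2 -/- and 1043961 to 1855136 counts in Trem2 +/+ animals, and levels are given as CPM, the share of a library's total on the usual scale, at which a value of 1 rested on 1 to 2 counts. The sort gave microglia in both groups. The 12 microglia markers summed to 31994 to 43522 CPM in Trem2 -/- and 28363 to 40017 CPM in Trem2 +/+ libraries, and Cx3cr1, the fractalkine receptor, alone averaged 18124 ± 4527 CPM in Trem2 -/- and 16001 ± 2205 CPM in Trem2 +/+ libraries (SD, n = 6 and 5). Neutrophils also carry Cd11b. Their 12 marker genes summed to 538 to 4090 CPM (median 1326) in Trem2 -/- and 394 to 8152 CPM (median 3659) in Trem2 +/+ libraries. On the first 2 principal components (29.1% and 15.8% of the variance over 4525 genes), 2 libraries stood apart, Trem2 -/- animal 945 (5 weeks) and Trem2 +/+ animal 9145 (12 weeks). Animal 9145 also had the smallest total and, of the 8 libraries with an RNA integrity number in the labels, the lowest one, at 8.1 against 8.7 to 9.7. Results that change without them are given with both values.

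Trem2 (ENSMUSG00000023992.14, chromosome 17, 48346401 to 48354147, plus strand, GRCm38) was measured first as the targeted gene. Its level in Trem2 -/- libraries was lowest at 109 CPM, with a median of 119 and a highest value of 250.4 CPM. In Trem2 +/+ libraries it stood at 925 and 729 CPM at 12 weeks and at 601, 542 and 933 CPM at 5 weeks. No Trem2 -/- library reached the lowest Trem2 +/+ library, and the 7 Trem2 +/- libraries lay between them, at 308 to 448 CPM (median 358). The Trem2 -/- mean of 154 ± 62.3 CPM was 20.6% of the Trem2 +/+ mean of 746 ± 180.0 CPM (SD, n = 6 and 5). The fitted difference was a log2 fold change of -2.24 ± 0.27 (SE), with an adjusted p of 0.000115 in edgeR's quasi-likelihood test with Benjamini-Hochberg adjustment over all genes. Trem2 -/- libraries still held 157 to 456 counts on the gene. Because the assay reads only the 3' part of a transcript, a deletion elsewhere in the gene could leave these counts, and the level checks the labels only in that the genotypes do not overlap.

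**Figure D1:**
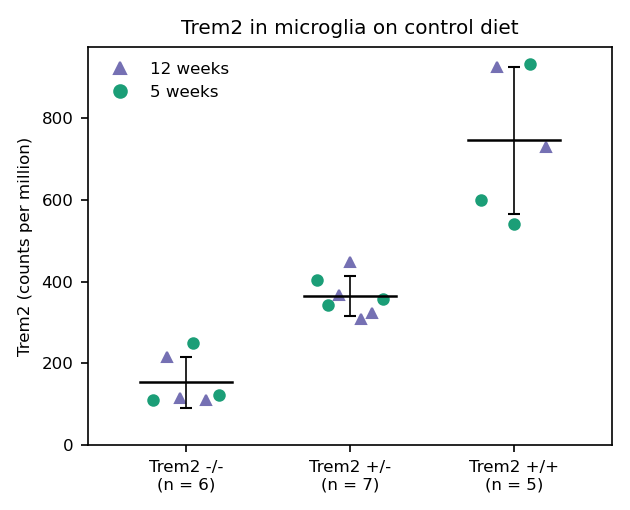
Trem2 in CPM in each microglia library on control diet, by genotype, with triangles for 12 weeks and circles for 5 weeks; lines and bars give mean and SD. The 6 Trem2 -/- libraries lie between 109 and 250.4 CPM, the 7 Trem2 +/- libraries between 308 and 448 CPM and the 5 Trem2 +/+ libraries between 542 and 933 CPM.

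Beyond Trem2 no gene passed the test. Of 9362 genes tested with week and sex as covariates, 1 was called lower at an adjusted p under 0.05 (0.0107% of the genes) and 0 were called higher, by edgeR. The DESeq2 Wald test and limma with voom weights also called 1 gene each, Trem2 in both. At an unadjusted p under 0.05 there were 261 genes (2.79%), 121 of them lower (1.29%) and 140 higher (1.5%). The median log2 fold change of all genes was 0.02. In data simulated at these depths, only genes of higher counts were changed, and the spread followed its trend over all genes. The test called 86.3% of those changed 4-fold and 31.6% of those changed 2-fold, so that changes of 2-fold and less could pass unseen. In the simulation 102 genes were changed 4-fold and 98 genes 2-fold at once, and 122 genes were called. The adjustment is then easier to pass than with 1 gene called, so these shares are likely too high for the data here. For genes of low counts, or of wider spread than the trend, the share called was not simulated, and larger changes could also be missed. In these bulk libraries, fewer cells of a type and less RNA per cell cannot be told apart.

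The lowest p-values after Trem2 were those of Clec7a and Lpl, both on the disease-associated list. They and the genes after them are given as values, since none was called (adjusted p of 0.9998 for each in edgeR's quasi-likelihood test). Clec7a (ENSMUSG00000079293, chromosome 6, 129461591 to 129472779) encodes dectin-1, a pattern receptor that microglia display when they enter the disease-associated state. It ranged over 6.95 to 50.2 CPM (median 33.1) in Trem2 -/- libraries, against 71.0 and 93.9 CPM at 12 weeks and 95.9, 79.9 and 57.7 CPM at 5 weeks in Trem2 +/+ libraries. The groups did not overlap, which held for 14 of the 9362 genes on the low side (0.15%). On the high side 15 genes did so (0.16%). The share that chance would give was not tested, and a lack of overlap alone does not tell a gene from chance, here or below. Its log2 fold change was -1.52 ± 0.37, with an unadjusted p of 0.000302. When the spread was estimated over the 23 Trem2 -/- and Trem2 +/+ microglia libraries of both diets, Clec7a passed the test on control diet, at -1.37 with an adjusted p of 0.0207 in edgeR, as 1 of 2 genes called of 13320 (0.015%). It also passed over all 37 microglia libraries, at -1.36 (adjusted p = 0.0189 in edgeR), and over that result's other alternatives the adjusted p was 0.0728 or more.

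Lpl (chromosome 8, 68880491 to 68907448) encodes lipoprotein lipase, which frees fatty acids from lipoproteins. It ranged over 12.6 to 50.5 CPM (median 30.8) in Trem2 -/- libraries, against 169 and 78.5 CPM at 12 weeks and 114, 45.6 and 74.8 CPM at 5 weeks in Trem2 +/+ libraries. The groups met only at 1 Trem2 +/+ animal, 309, which lay below the highest Trem2 -/- library. The difference was -1.48 ± 0.39. Cst7, the protease inhibitor cystatin F, averaged 19.8 ± 11.4 CPM in Trem2 -/- and 46.2 ± 21.1 CPM in Trem2 +/+ libraries (SD, n = 6 and 5), a difference of -1.28 ± 0.45. Axl, a receptor for phosphatidylserine on dying cells, ranged over 14.4 to 33.2 CPM (median 25.4) in Trem2 -/- libraries, against 60.9 and 18.2 CPM at 12 weeks and 63.1, 72.3 and 31.9 CPM at 5 weeks in Trem2 +/+ ones, a difference of -1.02 ± 0.45. The groups overlapped for both genes, and the Trem2 +/+ libraries spread more widely in CPM, around a higher mean.

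Among abundant genes, Lyz2, the lysozyme of myeloid cells, ranged over 664 to 1169.5 CPM (median 1019.6) in Trem2 -/- libraries. In Trem2 +/+ libraries it stood at 1774 and 1129 CPM at 12 weeks and at 2031, 1551 and 1166 CPM at 5 weeks. The 3 highest Trem2 +/+ libraries lay above every Trem2 -/- one, and the other two lay within their range. The difference was -0.68 ± 0.21, and counts may be shared with the near-identical Lyz1. Apoe, the main lipoprotein of brain lipid transport, ranged over 805 to 1296 CPM (median 1086) in Trem2 -/- libraries. Its Trem2 +/+ values were 1722 and 1157 CPM at 12 weeks and 1827, 2036 and 1147 CPM at 5 weeks, and the same 3 animals were again the high ones. Its difference was -0.54 ± 0.19. Il1b, which encodes the inflammatory cytokine interleukin-1 beta, averaged 333 ± 96.4 CPM in Trem2 -/- and 499 ± 85.9 CPM in Trem2 +/+ libraries (SD, n = 6 and 5), a difference of -0.65 ± 0.21.

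Neutrophils also make Lyz2, Il1b and Clec7a, and the summed neutrophil markers were higher at the median in Trem2 +/+ libraries (above). With that sum as a covariate, Lyz2 differed by -0.66, Il1b by -0.64 and Clec7a by -1.53, beside -0.68, -0.65 and -1.52 without it. Without the 2 libraries that stood apart the differences were -0.87, -0.64 and -1.76. None was called under either, and the part of neutrophils in these differences was not tested.

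**Figure D2:**
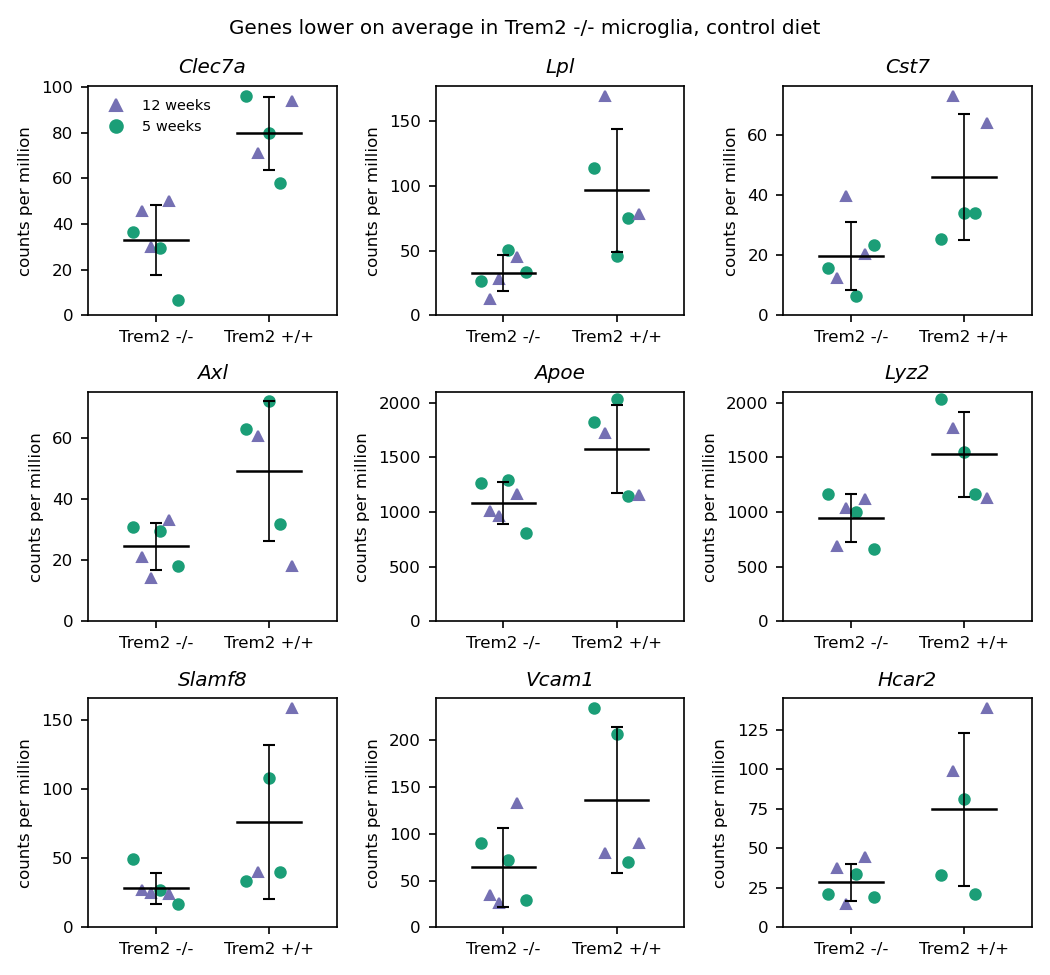
Levels in CPM of 9 genes in microglia on control diet, with Trem2 -/- left and Trem2 +/+ right in each panel, triangles for 12 weeks and circles for 5 weeks, and mean and SD as line and bars. Clec7a shows no overlap between groups, while Lpl, Cst7, Axl, Apoe, Lyz2, Slamf8, Vcam1 and Hcar2 overlap in 1 or more libraries.

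Among genes open to naming, the others of the 10 lowest p-values on the low side were of mixed function. Slamf8, a receptor of the SLAM family on macrophages, stood at 16.7 to 49.4 CPM (median 26.1) in Trem2 -/- libraries, against 40.1 and 159 CPM at 12 weeks and 33.4, 108 and 40.1 CPM at 5 weeks in Trem2 +/+ ones. Only animals 9145 and 309 lay far above the Trem2 -/- range, and its difference of -1.37 ± 0.40 was -0.93 without the 2 libraries that stood apart. Vcam1, an adhesion molecule best known from endothelium, differed by -1.16 ± 0.33 (64.0 ± 42.4 CPM in Trem2 -/- against 136 ± 78.0 CPM in Trem2 +/+ libraries, SD, n = 6 and 5). Hcar2, the receptor for niacin and beta-hydroxybutyrate, differed by -1.37 ± 0.39, with 28.5 ± 11.8 CPM in Trem2 -/- and 74.7 ± 48.3 CPM in Trem2 +/+ libraries (SD, n = 6 and 5). Paics, an enzyme of purine synthesis, differed by -1.50 ± 0.46, and by -0.95 without the 2 libraries that stood apart.

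G6pdx, which encodes the entry enzyme of the pentose phosphate pathway, did not overlap between groups. It stood at 5.45 to 16.6 CPM (median 8.86) in Trem2 -/- libraries, against 34.4 and 76.6 CPM at 12 weeks and 21.6, 17.1 and 29.1 CPM at 5 weeks in Trem2 +/+ libraries. Optn, an autophagy receptor, did not overlap either, at 0 to 7 counts in each Trem2 -/- library against 9 to 49 counts in each Trem2 +/+ library. Its fitted difference of -4.41 ± 1.27 rests on these low counts. Paics and G6pdx lie over genes on the other strand (Ppat and Ikbkg), and since the sources used here do not give the use of strand, their counts may include those genes. The same holds for Optn, Il1b, Vcam1, Errfi1, Ndufv2, Sec62, Ch25h, Trem1, Ctsz, Ank, P2ry12, Gpr34, Csf1r, Cx3cr1 and Trnt1, whose loci also overlap genes on the other strand.

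Among genes open to naming, the 10 lowest p-values on the high side were Trnt1, Cct2, Tma16, Gbp9, Tmem229b, Hspe1, Errfi1, Ndufv2, Atp6v0c and Tcea2. None of these is a marker of a microglial state in the lists used here. Cct2, a subunit of the cytosolic chaperonin, ranged over 76.3 to 123 CPM (median 108) in Trem2 -/- libraries, against 58.1 and 37.4 CPM at 12 weeks and 68.5, 53.3 and 74.2 CPM at 5 weeks in Trem2 +/+ libraries. The groups were separate but close, and the difference was 0.90 ± 0.29. Trnt1, which adds the terminal CCA to transfer RNAs, stood at 20.6 to 77.3 CPM (median 33.7) in Trem2 -/- libraries. In Trem2 +/+ libraries it stood at 15.8 and 13.4 CPM at 12 weeks and 11.9, 10.8 and 6.599 CPM at 5 weeks, again with no overlap, and it differed by 1.80 ± 0.52. Gbp9, a guanylate-binding protein of the interferon family, stood at 15.3 to 34.6 CPM (median 20.4) in Trem2 -/- libraries, against 2.87 and 0 CPM at 12 weeks and 12.4, 0 and 0 CPM at 5 weeks in Trem2 +/+ libraries. It shares its locus with Gbp4 and Gbp8 on the same strand, so that its counts may be split between them.

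Of all genes tested, 15 had every Trem2 -/- library above every Trem2 +/+ library (0.16%). Tma16 differed by 2.45 ± 0.79, by 1.27 without the 2 libraries that stood apart and by 0.78 in limma. Errfi1, an inhibitor of the EGF receptor, differed by 1.69 ± 0.56, and by 0.97 without them. Trem2 -/- animal 945 was the highest library for both genes, at 85.1 and 115 CPM.

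Of the lists examined, that of the TREM2-dependent disease-associated stage had the most members lower at an unadjusted p under 0.05. Lists and members were chosen with earlier results of these data known, and all members were read in the same 11 libraries. The counts below are therefore descriptive and no independent support. Of the 26 genes of the TREM2-dependent stage, 22 passed the filter on low counts, and 0 of them were called in either direction. At an unadjusted p under 0.05, 8 were lower (Clec7a, Lpl, Cst7, Ank, Cybb, Ctsz, Axl and Cadm1) and 0 higher, beside 1.29% and 1.5% of all genes. Below zero were 17 of the 22 (77.3%), against 47.4% of all genes, and the median log2 fold change was -0.39 against 0.02. Without the 2 libraries that stood apart, 7 were lower at that p and 0 higher, with a median of -0.41. Leaving out any 1 library gave medians of -0.57 to -0.34 and 6 to 9 such genes.

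Within this list, Ank, a pyrophosphate transporter, averaged 34.9 ± 14.4 CPM in Trem2 -/- and 71.4 ± 28.3 CPM in Trem2 +/+ libraries (SD, n = 6 and 5), a difference of -1.06 ± 0.38. Cybb, the catalytic subunit of the phagocyte NADPH oxidase, averaged 62.5 ± 23.2 CPM in Trem2 -/- and 111 ± 47.9 CPM in Trem2 +/+ libraries, a difference of -0.85 ± 0.32. Itgax, the integrin CD11c, had the lowest fitted value of the list at -1.67 ± 0.82 from few counts (1 to 30 in Trem2 -/- and 23 to 57 in Trem2 +/+ libraries). Members near zero included Cd68 at -0.08, Ctsl at -0.04 and Igf1 at 0.04, and Cd9 was at 0.29. The 4 members that did not pass the filter were Gpnmb, Lilrb4a, Ch25h and Fabp5. Of the 9 genes of the TREM2-independent stage, all tested, 0 were called, and Lyz2 and Apoe were the 2 lower at an unadjusted p under 0.05. Their median was -0.14, with Tyrobp at 0.09, B2m at 0.04 and the cathepsins Ctsb and Ctsd at -0.14 and -0.18.

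**Figure D3:**
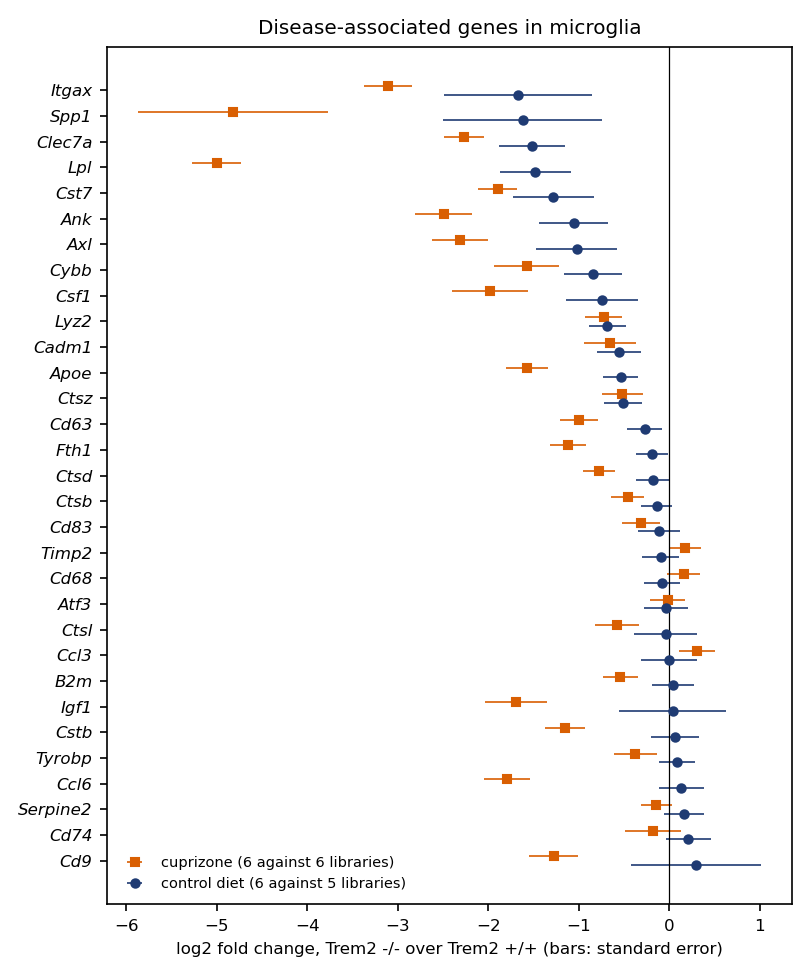
Log2 fold change of Trem2 -/- over Trem2 +/+ microglia for the tested disease-associated genes of both stages, with squares for cuprizone (6 against 6 libraries) and circles for control diet (6 against 5 libraries); bars give the standard error. On control diet the values run from -1.67 (Itgax) to 0.29 (Cd9), with Clec7a at -1.52 and Lpl at -1.48, and on cuprizone Lpl reaches -5.00.

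No homeostatic microglial gene passed the test. All 24 listed genes were tested, 0 were called and 0 passed an unadjusted p under 0.05 in either direction by edgeR, by the DESeq2 Wald test or by limma. Their median was 0.16 and 3 were below zero. P2ry12, the ADP receptor with which microglia sense injury, averaged 2867 ± 756 CPM in Trem2 -/- and 2589 ± 1109.8 CPM in Trem2 +/+ libraries (SD, n = 6 and 5), a difference of 0.31 ± 0.19. Tmem119, a microglia-specific surface protein, averaged 1077 ± 235 CPM in Trem2 -/- and 1050.1 ± 144 CPM in Trem2 +/+ libraries, a difference of 0.06 ± 0.20. Csf1r, the receptor that keeps microglia alive, averaged 1957 ± 464 CPM in Trem2 -/- and 1854 ± 271 CPM in Trem2 +/+ libraries, and Cx3cr1 differed by 0.22 ± 0.18. The values of Tmem119 and Csf1r turned below zero without Trem2 -/- animal 945, at -0.062 and -0.037, and without Trem2 +/+ animal 309, at -0.046 and -0.037. Gpr34, a receptor for lysophosphatidylserine, had the smallest p of the list, at 0.36 ± 0.21.

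None of the receptor's partners was called. Tyrobp, the adaptor that carries the TREM2 signal, averaged 1521 ± 329 CPM in Trem2 -/- and 1598 ± 624 CPM in Trem2 +/+ libraries (SD, n = 6 and 5), a difference of 0.09 ± 0.20 that was -0.21 without the 2 libraries that stood apart. Syk averaged 55.0 ± 21.2 CPM in Trem2 -/- and 78.3 ± 12.4 CPM in Trem2 +/+ libraries, a difference of -0.51 ± 0.33. Of 27 genes of the receptor complex and its signalling, 24 were tested and only Trem2 was called, with a median of -0.06. The related receptors of the same gene cluster were sparse. Treml2 differed by -0.38 ± 0.55, Treml1 by -0.28 ± 1.02 and Trem1, an amplifier of inflammation on neutrophils and monocytes, by 0.68 ± 1.15, while Trem3 and Treml4 did not pass the filter. Of the 51 genes within 1 Mb of Trem2, 14 were tested and 0 called, with a median of 0.14 that was 0.37 without the 2 libraries that stood apart, and Tfeb, a regulator of lysosomal genes in that interval, differed by 0.12 ± 0.35.

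The remaining gene programs held no called member. For chemokines and cytokines, 18 of 22 tested genes were below zero with a median of -0.22, Il1b being the only one lower at an unadjusted p under 0.05. The median of that list had opposite signs within the weeks, at 0.33 at 12 weeks and -0.52 at 5 weeks. Cholesterol synthesis and uptake genes had a median of -0.25 over 11 tested genes, and that median turned above zero without the 2 libraries that stood apart (0.08). It also did so without Trem2 -/- animals 8635 (0.16) or 945 (0.35) or Trem2 +/+ animals 1930 (0.06) or 1932 (0.24). The 12 tested cholesterol efflux genes had a median of -0.06, with Apoe the 1 lower at an unadjusted p under 0.05. That median was -0.36 without Trem2 +/+ animal 1932, 0.061 without Trem2 +/+ animal 309 and -0.28 over the 18 control-diet microglia libraries. The lysosome list, 32 of 32 tested, had a median of -0.09. Its lowest values were those of Npc1, a lysosomal cholesterol transporter, at -0.56 ± 0.28 and Ctsz, a cathepsin, at -0.51 ± 0.21, and its highest was Atp6v0c, a subunit of the proton pump, at 3.22 ± 1.11 from 3 to 45 counts in Trem2 -/- and 0 to 6 counts in Trem2 +/+ libraries. Interferon genes had a median of -0.03 over 17 tested genes, with 1 lower and 1 higher at an unadjusted p under 0.05. Oasl2, an antiviral protein of the OAS family, averaged 5.23 ± 5.29 CPM in Trem2 -/- and 16.5 ± 12.5 CPM in Trem2 +/+ libraries (SD, n = 6 and 5), a difference of -2.55 ± 1.22. Ifit1, also an antiviral protein, lay above the Trem2 +/+ range in every Trem2 -/- library (9.65 ± 3.59 CPM in Trem2 -/- against 1.11 ± 1.31 CPM in Trem2 +/+ libraries, SD, n = 6 and 5). The list of mTOR, autophagy and energy sensing genes, a route that TREM2 is known to feed, had a median of 0.22 over 19 tested genes with Ddit4 at 0.49 ± 0.31. Of 22 proliferation genes only 9 passed the filter, so that their median of 0.61 rests on few and sparse genes.

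Antigen presentation, complement, phagocytic receptor, fatty acid, integrated stress response, immediate early, transcription factor and survival lists had medians between -0.04 and 0.09, that of the fatty acid list being -0.30 without the 2 libraries that stood apart. Glycolysis and hypoxia genes stood at -0.15 and antioxidant and iron genes at -0.23. None of these lists had more than 1 member past an unadjusted p under 0.05 in either direction.

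**Figure D4:**
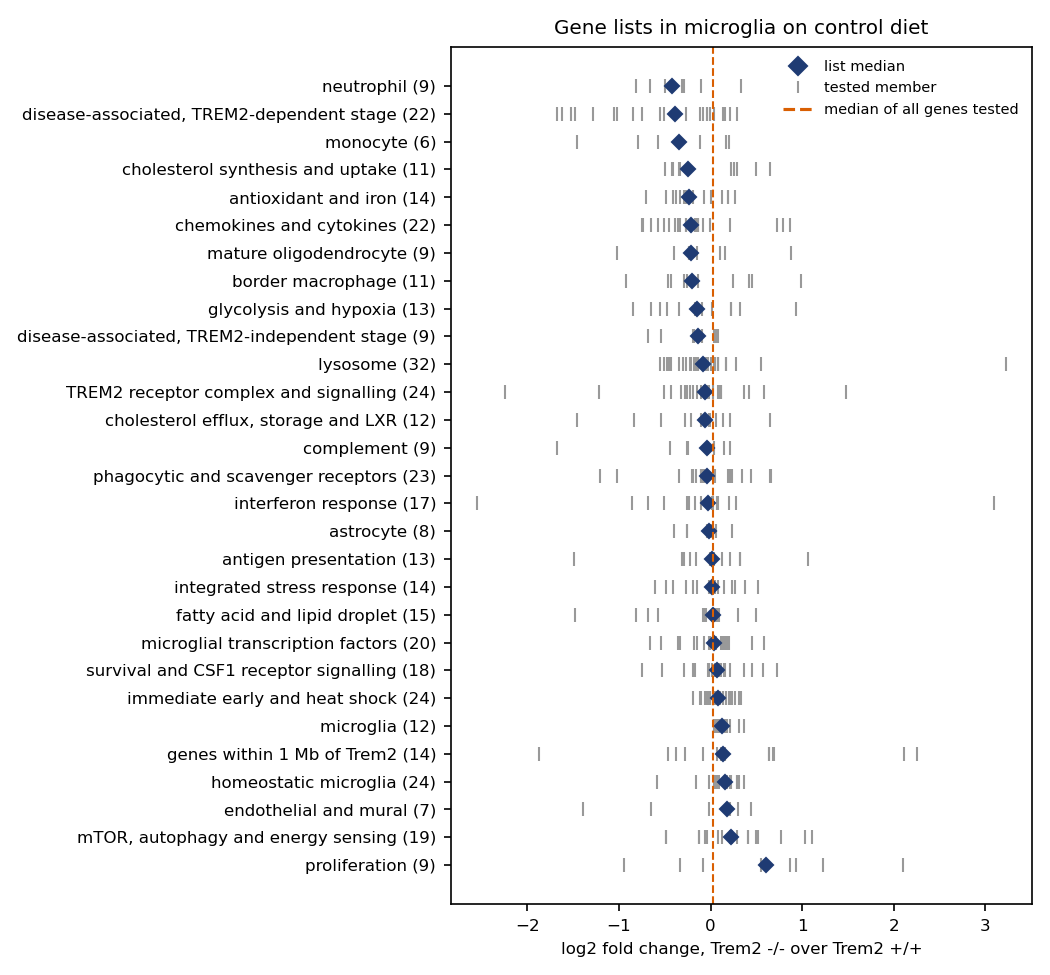
Log2 fold change of Trem2 -/- over Trem2 +/+ microglia on control diet for each list with at least 5 tested genes, the number tested in brackets; ticks are members, diamonds list medians, and the dashed line the median of all genes (0.02). The TREM2-dependent disease-associated list has a median of -0.39 and the homeostatic list one of 0.16.

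Markers of other cell types gave no called gene. The 9 tested neutrophil genes had a median of -0.42, which turned to 0.32 without the 2 libraries that stood apart, and Ngp, a granule protein, averaged 119 ± 103 CPM in Trem2 -/- and 272 ± 252 CPM in Trem2 +/+ libraries (SD, n = 6 and 5). Border macrophage markers summed to 692 to 1409.6 CPM in Trem2 -/- and 887 to 1909 CPM in Trem2 +/+ libraries, and Pf4, a chemokine they express, differed by -0.47 ± 0.25. Mature oligodendrocyte markers summed to 390.3 to 1003 CPM in Trem2 -/- and 370.1 to 1119 CPM in Trem2 +/+ libraries. Of the 9 tested ones 6 were below zero, with a median of -0.21. They ran from Mobp at -1.02 ± 0.81 to Cnp at 0.88 ± 0.41. Cnp is a myelin enzyme, and its locus overlaps Dnajc7 on the other strand. Endothelial and mural markers summed to 85.3 to 313 CPM in Trem2 -/- and 94.0 to 301 CPM in Trem2 +/+ libraries. Lymphocyte markers, 3 of 14 of them at 0 in every library, summed to 20.9 to 44.0 CPM in Trem2 -/- and 4.79 to 53.9 CPM in Trem2 +/+ libraries. Monocyte markers summed to 78.5 to 716 CPM in Trem2 -/- and 138 to 851 CPM in Trem2 +/+ libraries, and astrocyte markers to 610.0 to 2144 CPM in Trem2 -/- and 654 to 1904 CPM in Trem2 +/+ libraries. Erythroid markers summed to 0.496 to 21.3 CPM (median 9.60) in Trem2 -/- and 0 to 6.97 CPM (median 2.20) in Trem2 +/+ libraries, and 4 of the 6 Trem2 -/- libraries lay above the highest Trem2 +/+ one. Neuron markers summed to 77.0 to 405 CPM in Trem2 -/- and 69.8 to 314 CPM in Trem2 +/+ libraries. Ependymal and choroid plexus markers summed to 235 to 1257 CPM in Trem2 -/- and 235 to 1333 CPM in Trem2 +/+ libraries. Oligodendrocyte precursor markers summed to 24.8 to 55.5 CPM in Trem2 -/- and 15.8 to 102 CPM in Trem2 +/+ libraries. The part of these cell types in the gene differences above was not tested.

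The study sampled 2 times, so the Trem2 -/- effect was also compared between 12 and 5 weeks. Trem2 itself differed by -2.47 ± 0.39 at 12 weeks and by -2.06 ± 0.36 at 5 weeks (adjusted p = 0.00956 and 0.0436 in edgeR), and the difference between the times was -0.42 ± 0.51. It was among 3 genes called at 12 weeks (0.032% of those tested) and the 1 gene called at 5 weeks (0.0107%). Leaving out 1 library ended the call at 12 weeks for 4 animals (Trem2 -/- 8635 and 9467, Trem2 +/+ 1932 and 9145, at -2.68 to -2.22) and at 5 weeks for 8 animals (Trem2 -/- 1104, 8635 and 9470 and each Trem2 +/+ animal, at -2.24 to -1.67). Without Trem2 -/- animal 9470, 11 other genes were called at 5 weeks. The TREM2-dependent disease-associated list had medians of -0.57 at 12 weeks and -0.79 at 5 weeks, beside 0.042 and 0.013 over all genes. The other 2 genes called at 12 weeks were Dnajc19, higher by 3.11, and Hist1h1c, higher by 1.74 (adjusted p = 0.0188 each in edgeR). The count at 12 weeks was 0 without Trem2 -/- animal 9467 or Trem2 +/+ animals 1932 or 9145, 1 without Trem2 +/+ animal 309, and 13, 20 and 39 without Trem2 -/- animals 1744, 9470 and 945. The test of the difference called 5 of 9362 genes (0.0534%), all with a higher effect at 12 weeks. They were Dnajc19, a mitochondrial chaperone partner, H3f3b, a replacement histone, Ndufa1, a subunit of respiratory complex I, Hist1h1c, a linker histone, and Sec62, a component of protein entry into the endoplasmic reticulum. Dnajc19 averaged 201 ± 94.6 CPM in Trem2 -/- and 29.3 ± 14.3 CPM in Trem2 +/+ libraries at 12 weeks (SD, n = 3 and 2), and 92.2 ± 93.2 CPM in Trem2 -/- and 153 ± 62.8 CPM in Trem2 +/+ libraries at 5 weeks (SD, n = 3 each). Its effect differed by 4.11 ± 0.70 (adjusted p = 0.0270 in edgeR).

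Trem2 +/+ microglia at 12 weeks were represented by 2 libraries, animals 1932 and 9145, and these were low for the called genes. H3f3b stood at 861 and 701 CPM there, against 2312, 2282 and 3185 CPM in Trem2 +/+ animals at 5 weeks. In those 2 libraries 9.65% and 9.25% of counts lay on noncoding genes, against 6.01% to 8.26% in the other Trem2 +/+ libraries. Among Trem2 -/- libraries the share was 9.72% in animal 1744 (12 weeks) and 5.65% to 8.18% in the others. With that share as a covariate 0 genes were called, and 0 were called without the 2 libraries that stood apart. Dnajc19 then differed by 2.94 and 3.63. The count was also 0 without Trem2 -/- animals 1104 or 9467 or Trem2 +/+ animals 1930, 1932, 309 or 9145, 3 without Trem2 -/- animal 8635, 4 without 945, 19 without 1744, 109 without 9470 and 16 without Trem2 +/+ animal 5512. Dnajc19 overlaps Fxr1 on the other strand.

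On cuprizone more genes were called between the genotypes, in a separate fit. In the 12 cuprizone libraries alone, which share no library with the control-diet comparison, edgeR called 80 of 9491 genes lower (0.843%) and 14 higher (0.148%) in Trem2 -/- microglia. This set was chosen after the data were seen. Of the 80 lower genes 65 were tested on control diet. There 47 were below zero (72.3%), against 47.2% of the 8862 genes tested on both diets. Their median was -1.69 on cuprizone and -0.38 on control diet. The genes were chosen by their cuprizone values, which enlarges the cuprizone median and not the other. These medians therefore do not measure how the size of the effect differs between diets. At an unadjusted p under 0.05 on control diet 13 were lower and 0 higher, and without Trem2 itself 12 of 64 were lower. Over the 8862 genes 117 were lower and 134 higher at that p. Those 13 were Trem2, Lpl, Clec7a, Cst7, Axl, Ank, Cybb, Apoe, Slamf8, Cd52, Mfsd12, Chst2 and St8sia6, of which the last 4 are named after their values were seen. Cd52, a small surface glycoprotein, differed by -1.66 ± 0.19 on cuprizone and by -0.66 ± 0.22 on control diet. Leaving out any 1 control-diet library gave 43 to 58 genes below zero. The filter on low counts was run anew each time, so the number of genes tested also changed and these counts are not out of 65.

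Of the 14 genes higher on cuprizone, 3 were below zero on control diet. Their medians were 1.12 on cuprizone, enlarged by the same choice, and 0.17 on control diet. The homeostatic genes P2ry12 and Tmem119 were among the 14, at 1.24 and 1.07 on cuprizone and at 0.31 and 0.06 on control diet. Of the 25 TREM2-dependent disease-associated genes tested on cuprizone, 13 were called lower, and the list median was -1.70, beside 0.0053 over all genes tested there.

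**Figure D5:**
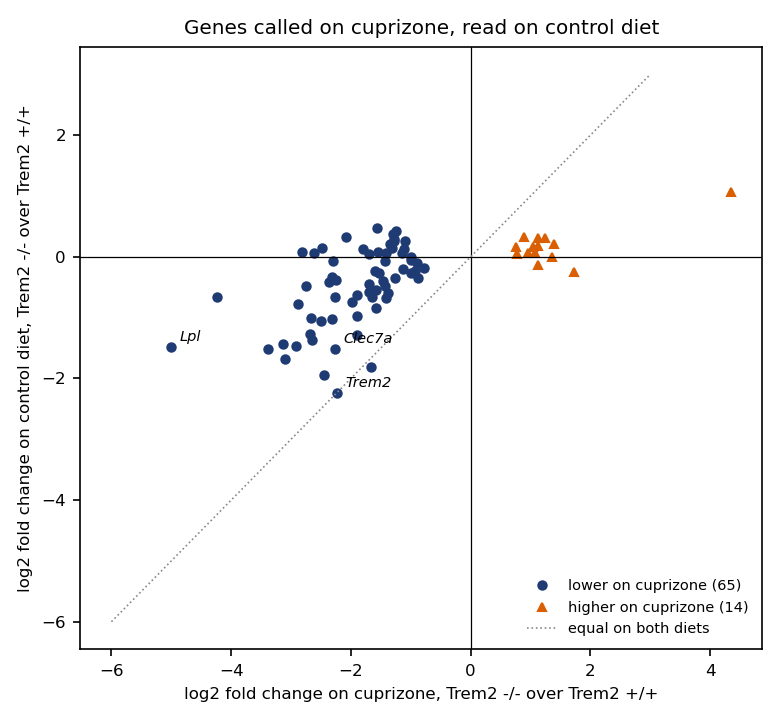
Log2 fold change of Trem2 -/- over Trem2 +/+ microglia on cuprizone (horizontal) and on control diet (vertical) for the genes called in the cuprizone libraries alone and tested on control diet; circles were lower (65 genes) and triangles higher (14 genes) on cuprizone. Trem2 lies on the dotted line of equal effects, at -2.23 and -2.24, and Lpl lies far from it, at -5.00 and -1.48.

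The difference of the effects between diets was tested over 23 libraries. It called 4 of 13320 genes (0.03%), each with a lower effect on cuprizone. The count was 8 without Trem2 -/- animal 945 on control diet, and 11, 9 and 9 without Trem2 -/- animals 2478, 310 and 9542 on cuprizone. Lpl ranged over 18.3 to 133 CPM (median 53.8) in Trem2 -/- and 1100.5 to 3201 CPM (median 1989) in Trem2 +/+ microglia on cuprizone, so that the groups were far apart there. The effect on cuprizone minus that on control diet was -3.42 ± 0.44 (adjusted p = 0.000214 in edgeR). Ch25h, the cholesterol 25-hydroxylase, averaged 4.54 ± 4.37 CPM in Trem2 -/- and 114 ± 65.9 CPM in Trem2 +/+ microglia on cuprizone (SD, n = 6 each), against 4.41 ± 7.25 CPM in Trem2 -/- and 6.41 ± 7.18 CPM in Trem2 +/+ microglia on control diet (n = 6 and 5). Its effects differed by -5.35 ± 0.98 (adjusted p = 0.00546 in edgeR). In the control-diet libraries alone Ch25h did not pass the filter on low counts.

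Pianp, a membrane ligand of the inhibitory receptor PILRA, averaged 1.57 ± 1.32 CPM in Trem2 -/- and 91.3 ± 54.8 CPM in Trem2 +/+ microglia on cuprizone (SD, n = 6 each), against 1.68 ± 1.74 CPM in Trem2 -/- and 2.08 ± 2.31 CPM in Trem2 +/+ microglia on control diet (n = 6 and 5). Its effects differed by -5.74 ± 1.05 (adjusted p = 0.00546 in edgeR). Like Ch25h, Pianp did not pass the filter on low counts in the control-diet libraries alone. Both genes entered the test of the diets through the high Trem2 +/+ libraries on cuprizone. Their counts on control diet were too low to show an effect of genotype there, so the test says little of the baseline. Hspe1, the mitochondrial co-chaperonin, had values of opposite sign on the 2 diets, neither called, at -1.14 ± 0.33 on cuprizone and 1.44 ± 0.47 on control diet. It averaged 71.2 ± 38.8 CPM in Trem2 -/- and 152 ± 31.8 CPM in Trem2 +/+ microglia on cuprizone (SD, n = 6 each), against 79.4 ± 25.7 CPM in Trem2 -/- and 39.6 ± 32.7 CPM in Trem2 +/+ microglia on control diet (n = 6 and 5), where the Trem2 +/+ animals 1932 and 9145 were lowest at 4.30 and 14.4 CPM. Its effects differed by -2.95 ± 0.50 (adjusted p = 0.00264 in edgeR), and its locus overlaps Hspd1 on the other strand. Ch25h was not called without Trem2 -/- animals 9467 or 9470 on control diet (-3.96 and -4.90, adjusted p = 0.267 and 0.133 in edgeR) or without Trem2 +/+ animal 9144 on cuprizone (-5.06, adjusted p = 0.0695). Pianp was not called without Trem2 -/- animal 945 (-4.83, adjusted p = 0.124), without both libraries that stood apart (-4.66, adjusted p = 0.142) or without Trem2 +/+ animal 1746 on cuprizone (-5.65, adjusted p = 0.0628). For Trem2 the effects differed by 0.01 ± 0.36, and for Clec7a, Apoe and Cst7 the differences of -0.88 ± 0.35, -1.02 ± 0.27 and -0.64 ± 0.38 did not pass (adjusted p = 0.497, 0.192 and 0.735 in edgeR).

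In the other cells of the same 11 brains, edgeR called 0 of 11166 genes, and DESeq2 and limma also called 0. Before adjustment 241 genes (2.16%) had a p under 0.05. Trem2 was low there, at 4.71 ± 2.47 CPM in Trem2 -/- and 9.17 ± 3.85 CPM in Trem2 +/+ libraries (SD, n = 6 and 5), a difference of -0.83 ± 1.08 that did not pass. Apoe, which astrocytes make in quantity, averaged 1915 ± 188 CPM in Trem2 -/- and 1865 ± 221 CPM in Trem2 +/+ libraries, a difference of 0.08 ± 0.20. Lpl averaged 10.9 ± 3.52 CPM in Trem2 -/- and 11.7 ± 6.92 CPM in Trem2 +/+ libraries, a difference of 0.00 ± 0.44.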

How the data were processed

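Libraries were made with the QuantSeq 3' kit for low input, per the labels' protocols. The files hold raw counts per gene, deposited by the authors, with Ensembl identifiers. FastQC 0.11.5, STAR, MultiQC and R 3.4.3 and the build GRCm38.p6 are named in the submitters' processing notes; which tool and annotation produced the counts, and whether strand or molecular identifiers were used, is not given in the sources used here. Of 49912 identifiers 49825 matched GENCODE M21, used for positions.

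Genes were kept with filterByExpr (minimum count 10), scaled by TMM and tested with edgeR 4.0.16 (quasi-likelihood, robust) in R 4.3.3, with genotype, week and sex as terms and Benjamini-Hochberg adjustment over all genes, called at 0.05. Interactions with week (11 libraries) and with diet (23 libraries, averaged over weeks) were tested in the same way. CPM are shares of the library total without TMM; SE is the fold change divided by the root of F. DESeq2 1.42.0 and limma 3.58.1 were alternatives. Each library is 1 animal, and no 2 libraries agreed within sampling noise. The test was checked on simulated data.

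The named genes were Trem2, called genes, the 10 smallest unadjusted p-values in each direction at an average log2 CPM of at least 3, the smallest p of each list, a fixed panel and the Trem family; Ank, Cybb, Ctsz, Cadm1, Npc1, Oasl2 and Mobp were added after their values were seen. Predicted genes, Y-linked genes, Xist and Tsix were left out of the naming but not of the counts. The members and lists were chosen with earlier results of these data known. The fit of cuprizone libraries alone, the fits without the 2 libraries that stood apart and the noncoding and neutrophil covariates were added after the data were seen.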

Additional observations from a re-analysis of the deposited data

Results flagged for a closer look

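A single library lay far from the rest of its group in 11 of 134 groups examined over 67 named genes. Each of the 11 was a high value, several rested on few counts, and many of the genes were named by their p-values. The share that chance would give for such values was not tested. Among Trem2 -/- libraries, animal 945 was high for Cx3cr1 (27180.0 CPM, others 14672 to 17290.3), Rbfox3 (50.5 CPM, others 1.98 to 11.7) and Tma16 (85.1 CPM, others 12.7 to 35.2). Animal 9467 was high for Ch25h (19.1 CPM, others 0.664 to 3.24) and Optn (4.95 CPM, others 0 to 0.991), and animal 1104 for Slamf8 (49.4 CPM, others 16.7 to 27.2). Among Trem2 +/+ libraries, animal 9145 was high for Cenpf (12.5 CPM, others 0.539 to 3.58), animal 1930 for Gbp9 (12.4 CPM, others 0 to 2.87) and animal 1932 for Tcea2 (12.9 CPM, others 0 to 1.65). Animal 5512 was high for Tmem229b (17.05 CPM, others 3.80 to 7.17) and animal 309 for Treml1 (22.2 CPM, others 4.85 to 9.32).

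The Trem2 -/- effect was called different between 12 and 5 weeks, in edgeR's test of the difference, for Dnajc19 (4.11), H3f3b (2.30), Ndufa1 (2.71), Hist1h1c (2.10) and Sec62 (2.28), all as log2 differences. Trem2 +/+ microglia at 12 weeks were animals 1932 and 9145 only. No gene was called with no sex term, with the noncoding share as covariate or without the 2 libraries that stood apart. The effect was called different between cuprizone and control diet for Lpl (-3.42), Hspe1 (-2.95), Ch25h (-5.35) and Pianp (-5.74). Ch25h and Pianp did not pass the filter on low counts in the control-diet libraries alone.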

How the results depend on the processing

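Trem2 was called under each of the 22 alternatives of the control-diet comparison (-2.56 to -2.09), alone except over all 37 microglia libraries, where 2 genes were called, 2 also among the lists. Values of uncalled genes that changed sign were those of Trem1 (limma, -0.48), Ttr (limma 0.059, without the 2 libraries that stood apart 0.075), Chil3 (without them 0.019), Treml2 (noncoding share as covariate 0.22), Csf1r and Tmem119 (neutrophil covariate, -0.034 and -0.0063) and Tyrobp (limma -0.028, no sex term -0.044, all 37 libraries -0.0025, without the 2 libraries -0.21, neutrophil covariate -0.012). Leaving out 1 library gave Ttr -0.31 to 0.19, Rbfox3 -1.07 to 0.90, Treml2 -0.74 to 0.23, Treml1 -0.54 to 0.12, Csf1r -0.037 to 0.18, Tmem119 -0.062 to 0.16 and Tyrobp -0.055 to 0.21.

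The count of genes differing between weeks was 5, but 1 with DESeq2 size factors, 109 by DESeq2, 98 with no filter, 0 with no sex term, without the 2 libraries or with the noncoding share, and 0 to 109 leaving out 1 library. Within 12 weeks it was 3, but 107 by DESeq2, 6 by limma, 76 with no filter, 1 with no sex term, 0 with the noncoding share (Trem2 -2.07, adjusted p = 0.355) and 0 to 39 leaving out 1 library. Within 5 weeks it was 1, but 0 with DESeq2 size factors, 4 with no filter and 0 to 11 leaving out 1 library. Between diets it was 4, but 35 by DESeq2, 56 with no filter, 9 without the 2 libraries and 3 to 11 leaving out 1 library. Limma did not call Ch25h, Pianp or Hspe1 (adjusted p = 0.161, 0.145 and 0.0823). The causes were not tested. In nonmicroglia 0 genes were called under all 16 alternatives. No paired analysis was possible because Trem2 -/- and Trem2 +/+ animals share no number. With 6 against 5 libraries, simulated 2-fold changes in genes of higher counts were called in 31.6% of cases. Many genes were changed at once there, which makes the adjustment easier to pass than in these data.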
